A study of Mus musculus with 21 samples.

Results

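Transcripts of 8 genes, the growth factors and receptors Nrg1, Erbb2, Erbb4, Igf1, Igf2, Igf1r, Tnfrsf12a and Agrn, were followed in the healing heart of newborn mice. They were picked by symbol out of a table of 18762 genes, and all 8 were found. The tissue was heart apex of ICR mice at postnatal day 7, whose ventricle tip had been removed at 1 day of age in every group. The treatment label of the control group gives apical resection alone. Its libraries are titled NS, which is not spelled out, and whether it was injected is not stated. The other 6 groups received subcutaneous drug over a 7-day course. Isoproterenol activates β-adrenergic receptors, and metoprolol and propranolol block them. Amiodarone acts on several ion channels, lidocaine on sodium channels and ivabradine on the pacemaker current, and these 5 drugs are called anti-arrhythmic below. Each of the 7 groups had 3 libraries, 21 in all. The labels state no dose. They also do not say that the libraries came from separate animals, so p-values measure only the spread between libraries, which may be technical.

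The 8 genes belong to 4 signalling routes that are known to act on cardiomyocyte growth and division after birth. Neuregulin-1 is released by endothelial cells and binds Erbb4 on cardiomyocytes, which pairs with Erbb2, a receptor that has no ligand of its own. The insulin-like growth factors bind Igf1r, and their supply is set by binding proteins and by Igf2r, which clears Igf2. Tnfrsf12a, also called Fn14, is the receptor of the cytokine Tweak, and it is induced by growth factors and injury. Agrin is a matrix proteoglycan that binds dystroglycan on the muscle cell surface and is known to promote regeneration of the neonatal mouse heart.

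The promoters of Tnfrsf12a and Igf1 are shown because these are the members that fell with isoproterenol. Each sequence is the 250 bases before the start site in RefSeq's promoter table (GRCm38.p6), at chr17:23677450-23677699 on the minus strand for Tnfrsf12a and at chr10:87860861-87861110 on the plus strand for Igf1. Capitals mark matches to the motifs searched.
Tnfrsf12a: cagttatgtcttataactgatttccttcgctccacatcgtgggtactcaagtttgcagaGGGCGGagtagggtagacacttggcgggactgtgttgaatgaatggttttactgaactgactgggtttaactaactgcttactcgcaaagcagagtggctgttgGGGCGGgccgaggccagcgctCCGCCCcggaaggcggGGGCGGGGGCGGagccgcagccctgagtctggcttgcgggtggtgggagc
Igf1: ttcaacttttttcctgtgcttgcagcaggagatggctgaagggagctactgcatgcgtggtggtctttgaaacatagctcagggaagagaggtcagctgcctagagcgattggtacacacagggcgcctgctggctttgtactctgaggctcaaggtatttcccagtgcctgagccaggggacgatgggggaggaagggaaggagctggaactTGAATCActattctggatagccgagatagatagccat
The motifs, read on both strands, were TGANTCA (AP-1), TGACGTCA (CRE), its part TGACG, which overlaps it, CATTCC (TEAD), GGGCGG (SP1), TATAAA and the CArG box. The Tnfrsf12a window holds 5 SP1 matches and no match to the others, and SP1 is found in 32.7% of 32851 promoter windows of this length. The Igf1 window holds 1 match, to AP-1, at positions -37 to -31 from the start, and 6.75% of windows hold that motif. A match describes letters, not binding. Promoter entries were matched for 7 of the 8 genes, and the mm9 build named by the submitters differs from the build of this table.

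Levels are given in FPKM, which divides fragments by transcript length and by library total, so genes can be compared. Igf2 was the most abundant, at 203 to 303 FPKM over the 21 libraries, followed by Tnfrsf12a at 26.4 to 123 FPKM and Agrn at 26.9 to 41.5 FPKM. Erbb2 at 6.33 to 9.41 FPKM, Igf1r at 5.15 to 7.88 FPKM and Igf1 at 4.10 to 8.37 FPKM overlapped one another. Erbb4 lay at 0.73 to 1.13 FPKM and Nrg1 at 0.20 to 0.47 FPKM. In the other 6 groups every Tnfrsf12a value was above every Agrn value, and with isoproterenol Tnfrsf12a (36.0 ± 8.50 FPKM, SD, n = 3) overlapped Agrn (35.6 ± 5.12 FPKM).

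**Figure D1:**
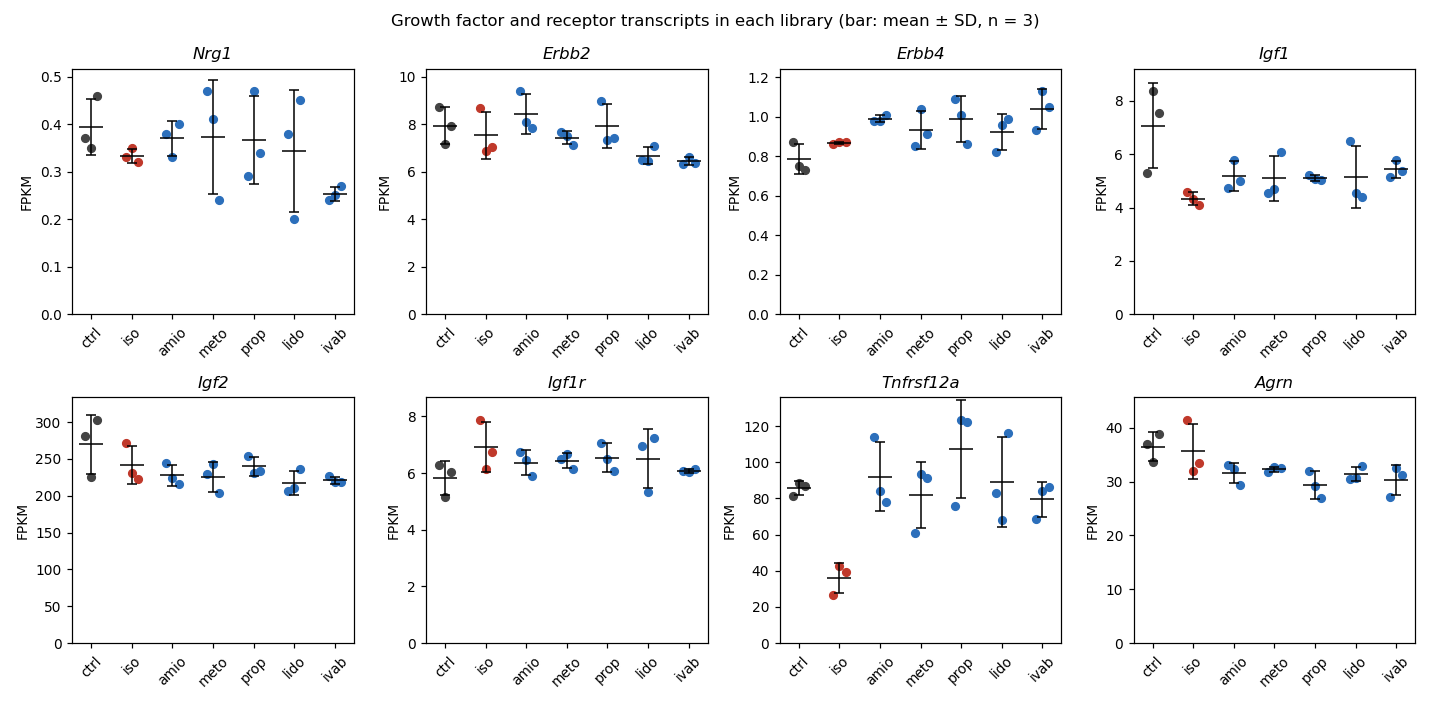
FPKM of the 8 genes (vertical axes, linear from 0) in each of the 21 libraries by group (horizontal axes), points for libraries and bars for mean ± SD of 3. The 3 isoproterenol points of Tnfrsf12a, at 26.4 to 42.5 FPKM, lie under all other libraries, while most other groups overlap.

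The deposited values hold no read counts, so the absolute depth and counting error are unknown. The sum of FPKM ran from 496304 to 552905 per library, and Pearson's r between libraries of the same group, taken over genes, was 0.988 to 0.996. The 10 cardiomyocyte markers summed to between 45382 and 52959 FPKM in all groups. In the tests against control described below, 3 to 5 of these 10 were called higher with each drug, and 1 lower with lidocaine. Some libraries carried transcripts of other tissues: the lung gene Sftpc at 222 FPKM in amiodarone 2 and, far lower, at 9.10 FPKM in lidocaine 1, the liver gene Alb at 10.8 FPKM in propranolol 1, the fast skeletal muscle gene Mylpf at 62.7 FPKM in control 3 and the atrial gene Myl7 at 176 FPKM in isoproterenol 3. Calls were repeated without amiodarone 2, propranolol 1, control 3 and isoproterenol 3, called the 4 libraries below. They were also repeated without these and lidocaine 1, the 5 libraries, a setting chosen after seeing the data. Both settings kept amiodarone 3 and control 2, where Mylpf stood at 30.4 and 14.7 FPKM, so they do not remove all transcripts of other tissues. Y-linked transcripts were present in all 3 libraries with amiodarone and with propranolol, in 2 of 3 controls and 2 with ivabradine, in 1 with metoprolol and 1 with lidocaine, and in 0 with isoproterenol. The libraries of control, ivabradine, metoprolol and lidocaine therefore did not all come from the same animal or pool. Whether each library had its own animal stays unknown. In bulk tissue, fewer cells of a type and less RNA per cell cannot be told apart.

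Of the 8 genes, 7 passed the filter of at least 1 FPKM in at least 3 libraries and were tested with limma on log2(FPKM + 1), adjusted over all 12433 genes tested. Nrg1 stayed under 1 FPKM in all 21 libraries. Erbb4 passed with 6 libraries at or above 1 FPKM, all of them from anti-arrhythmic groups. Against control, 2 of the 7 were called with isoproterenol, where 34.2% of all tested genes were called. The count was 1 with amiodarone (background 29.0%), 1 with metoprolol (31.4%), 2 with propranolol (26.8%), 2 with lidocaine (37.1%) and 3 with ivabradine (27.0%). Each of these 11 calls was to a lower level, and none of the counts stands far from its background. All 6 comparisons share the same 3 control libraries.

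Split by direction, the background of higher and lower calls was 8.38% and 25.8% of genes with isoproterenol, 8.47% and 20.6% with amiodarone, and 9.48% and 22.0% with metoprolol. It was 6.98% and 19.8% with propranolol, 10.6% and 26.6% with lidocaine, and 7.91% and 19.1% with ivabradine. Against the mean of the 5 anti-arrhythmic groups, isoproterenol had 9.51% of genes called higher and 13.3% lower. Groups whose libraries did not overlap the controls, in either direction, were also common, at 44.8% of genes with isoproterenol, 43.6% with amiodarone, 46.5% with metoprolol, 42.6% with propranolol, 48.5% with lidocaine and 35.9% with ivabradine. Without the 4 libraries the shares higher and lower were 4.37% and 11.2% with isoproterenol and 3.03% and 6% with amiodarone. They were 7.13% and 15.4% with metoprolol, 2.78% and 8.16% with propranolol, 8.53% and 19.8% with lidocaine, and 5.45% and 12.5% with ivabradine. Without the 5 libraries they ran from 2.23% to 6.39% higher and from 4.85% to 15.3% lower. The gene lists described further on are read against these shares, each count against those of the same set of libraries.

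Most of these calls depended on how libraries were scaled. After median-of-ratios rescaling, which moved the median of all genes by at most 0.08 log2, Tnfrsf12a and Igf1 stayed lower with isoproterenol and Igf1r was called higher. The lower calls with the other 5 drugs were lost. Erbb4, which passed the filter only through anti-arrhythmic libraries, was called higher with ivabradine. The share of higher calls among all called genes rose with that rescaling from 24.5% to 52.8% for isoproterenol, from 29.2% to 58.4% for amiodarone, from 30.2% to 56.8% for metoprolol, from 26.1% to 55.0% for propranolol, from 28.4% to 53.6% for lidocaine and from 29.3% to 55.0% for ivabradine. Without the 4 libraries carrying other tissues, 1 member was called with isoproterenol, Tnfrsf12a, and 0 with each of the other drugs. When the 5 libraries were left out, Tnfrsf12a and Igf1 were called with isoproterenol, Igf1 with lidocaine and none with the other 4 drugs. With the Y-linked covariate the counts of members were 0 with amiodarone, 2 with metoprolol, 1 with propranolol and 3 with lidocaine.

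**Figure D2:**
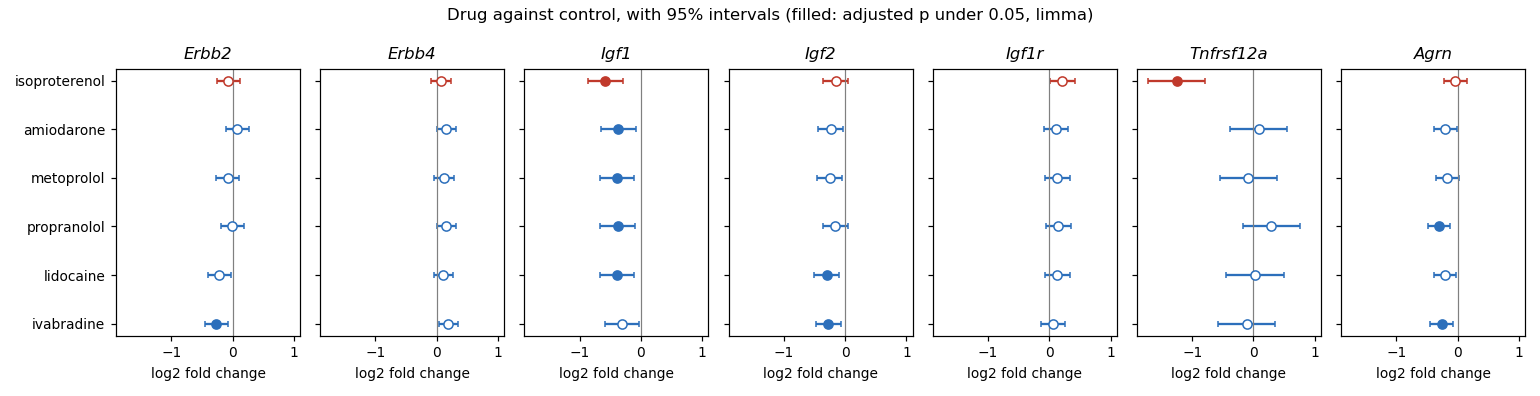
Log2 fold change of each tested gene against control (horizontal axes) for the 6 drugs (vertical axis), with 95% intervals and filled points for adjusted p under 0.05. Tnfrsf12a with isoproterenol, at -1.25, lies apart from the other points, whose largest change is the -0.58 of Igf1 with isoproterenol.

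Tnfrsf12a, the Tweak receptor, fell with isoproterenol and with none of the other drugs. Its 3 control libraries had 81.2, 88.8 and 86.7 FPKM, and its 3 isoproterenol libraries had 26.4, 42.5 and 39.2 FPKM. All 3 isoproterenol libraries were under every control library. The same groups did not overlap, in either direction, for 44.8% of all genes tested. The mean was 36.0 ± 8.50 FPKM against 85.5 ± 3.92 FPKM in controls, a log2 fold change of -1.25 ± 0.22 (SE, adjusted p = 5.0e-04).

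The other drug groups stayed around the control level, with a wider spread. Amiodarone libraries had 114, 84.2 and 77.9 FPKM, and metoprolol libraries had 60.9, 93.6 and 91.3 FPKM. Propranolol gave the highest mean, from libraries of 75.9, 123 and 122 FPKM. Lidocaine libraries had 82.9, 68.1 and 116 FPKM, and ivabradine libraries had 68.4, 84.0 and 86.3 FPKM. In the order of group means, propranolol, amiodarone, lidocaine, control, metoprolol and ivabradine each overlapped their neighbours, and isoproterenol alone did not. Log2 fold changes against control ran from -0.11 with ivabradine (95% interval -0.58 to 0.36) to 0.29 with propranolol (-0.18 to 0.76), and none was called.

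The difference between isoproterenol and the mean of the 5 anti-arrhythmic groups was tested itself, without the shared controls. Tnfrsf12a was lower by a log2 fold change of -1.29 ± 0.17 (adjusted p = 6.3e-05). All 3 isoproterenol libraries were under all 15 anti-arrhythmic libraries, which held for 8.78% of genes in either direction. It was the 1 member of 7 called in that comparison, where the background was 22.8%. Both Tnfrsf12a differences were called in all 32 alternative settings, at -1.38 to -1.05 against control and at -1.43 to -1.09 against the 5 drugs. Without the 4 libraries carrying other tissues they were -1.32 (adjusted p = 0.0067) and -1.42 (adjusted p = 0.0011), and with the Y-linked covariate -1.32 (adjusted p = 0.0018) and -1.36 (adjusted p = 6.3e-04). Of the 32 settings, those that left out 1 library outside a comparison kept its fold change and altered only the estimate of the spread.

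Tnfrsf12a overlaps Hcfc1r1 in the RefSeq annotation, and whether reads were counted by strand is not stated. Hcfc1r1 stood at 112 ± 7.64 FPKM with isoproterenol and 126 ± 7.59 FPKM in controls (log2 -0.16 ± 0.08, adjusted p = 0.12), and it was called lower with metoprolol and lidocaine. Markers of other cells also differed between these groups. The 9 pericyte and smooth muscle markers summed to 464 to 535 FPKM with isoproterenol and 562 to 612 FPKM in controls, with 1 called lower and 2 called higher. Of the 6 neutrophil markers tested, 5 were called lower, with sums over 7 markers of 8.27 to 11.2 FPKM against 21.9 to 142 FPKM. Their part in the Tnfrsf12a difference was not tested.

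Tnfsf12, which encodes the ligand Tweak, fell with all 6 drugs. Its level was 23.7 ± 1.60 FPKM in controls, and it was 19.3 ± 0.737 FPKM under isoproterenol (log2 -0.28 ± 0.08, adjusted p = 0.0088) and 16.1 to 18.0 FPKM in the 5 anti-arrhythmic groups. The isoproterenol value was lost after rescaling (adjusted p = 0.072), and its difference from the mean of the 5 drugs missed the threshold (log2 0.15 ± 0.06, adjusted p = 0.078). Traf5, a signalling adaptor of this receptor family, fell with all 6 drugs, from 6.07 ± 0.748 FPKM to 3.98 to 4.23 FPKM.

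Of the 15 genes listed for the Tweak route, 13 were tested, and none was called higher with any drug. The counts of lower calls were 6 with isoproterenol and with amiodarone, 5 with propranolol, 4 with metoprolol and 3 with lidocaine and with ivabradine. Cd74, counted in the 6 with isoproterenol and the 6 with amiodarone, encodes the MHC class II invariant chain and is no Tweak signalling component. Over all genes, 25.8% were called lower with isoproterenol and 19.1% to 26.6% with the other 5 drugs. With isoproterenol the median log2 fold change was -0.17 in the list and -0.09 over all genes. Relb, a subunit of noncanonical NF-κB, was among the lower calls of the list, at 7.20 ± 0.297 FPKM with isoproterenol and 9.50 ± 0.655 FPKM in controls (log2 -0.36 ± 0.07, adjusted p = 0.0016). It also fell with amiodarone, and with metoprolol and propranolol, where rescaling lost the calls (adjusted p = 0.11 and 0.10). With ivabradine Relb stood at 9.42 ± 0.686 FPKM (log2 -0.01 ± 0.07). With the 4 libraries left out, lower calls in this list numbered 4, 2, 3, 2, 3 and 3 with isoproterenol, amiodarone, metoprolol, propranolol, lidocaine and ivabradine. Over all genes 6% to 19.8% were called lower in that setting. Tnfsf12 then lost its call with isoproterenol (adjusted p = 0.076), and Relb lost its calls with amiodarone, metoprolol and propranolol (0.051 to 0.26). After leaving out the 5 libraries the counts were 4, 1, 3, 2, 3 and 3, Tnfsf12 was lost with amiodarone too (0.052), and the Relb difference from the 5 drugs was lost (0.054).

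Igf1, the ligand of Igf1r made in the heart mainly outside cardiomyocytes, fell with isoproterenol and, less firmly, with 4 other drugs. Control libraries had 5.28, 8.37 and 7.54 FPKM, and isoproterenol libraries had 4.58, 4.31 and 4.10 FPKM. The groups did not overlap, although control 1 was nearer to the isoproterenol libraries than to the other controls. The log2 fold change was -0.58 ± 0.13 (adjusted p = 0.0033). It was called in 31 of 32 alternative settings and lost without the 4 libraries carrying other tissues (-0.49, adjusted p = 0.069). Without the 5 libraries the adjusted p was 0.045. Of the 32 settings, those that left out 1 library of another group kept the same fold change and altered only the estimate of the spread.

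The anti-arrhythmic groups lay between those levels. Igf1 was at 4.74, 5.79 and 5.01 FPKM with amiodarone, 4.54, 4.68 and 6.07 FPKM with metoprolol, and 5.23, 5.07 and 5.04 FPKM with propranolol. It was at 6.49, 4.56 and 4.38 FPKM with lidocaine and 5.15, 5.77 and 5.36 FPKM with ivabradine. Of these 5 groups, propranolol alone was wholly under the controls, and neighbouring groups in the order of means overlapped throughout. Log2 fold changes were -0.37 with amiodarone (adjusted p = 0.046), -0.39 with metoprolol (0.033), -0.38 with propranolol (0.043), -0.39 with lidocaine (0.030) and -0.31 with ivabradine (0.094), each ± 0.13.

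Those 4 calls rested on few libraries. Without control 2 the adjusted p was 0.22, 0.17, 0.20 and 0.16 with amiodarone, metoprolol, propranolol and lidocaine, and without control 3 it was 0.14, 0.11, 0.13 and 0.10. The metoprolol call was also lost without metoprolol 1 (0.13) or metoprolol 2 (0.096), the lidocaine call without lidocaine 2 (0.12) or lidocaine 3 (0.12), and the propranolol call without isoproterenol 2 (0.051), ivabradine 3 (0.051) or any propranolol library (0.081 to 0.097). The amiodarone call was kept in 10 of 32 settings and was lost without any amiodarone library (0.054 to 0.14). It was also lost without any isoproterenol or propranolol library, metoprolol 1 or 2, or ivabradine 2 or 3 (0.050 to 0.055). Rescaling gave adjusted p of 0.069 to 0.095 for the 4 drugs. With ivabradine Igf1 was called without control 1 (-0.48, adjusted p = 0.0098). Isoproterenol against the mean of the 5 drugs gave -0.21 ± 0.10 (adjusted p = 0.15).

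Igf1 moved with markers of macrophages and fibroblasts from library to library. The 10 macrophage markers summed to 295 to 689 FPKM in controls, with control 1 the lowest, and to 113 to 227 FPKM with isoproterenol, where 9 of 10 were called lower. In the 5 other groups the sums ran from 167 to 472 FPKM, and 4 of 10 were called lower with amiodarone and 7 with each of the others. The 10 fibroblast markers summed to 1864 to 3461 FPKM in controls, again with control 1 lowest, and 2009 to 2154 FPKM with isoproterenol, with 5 called lower. No marker of either list was at 0 in any library. Pearson's r of Igf1 with the log sums over the 21 libraries was 0.88 for each list, over points that share the group differences. The part of these cells in the Igf1 differences was not tested.

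**Figure D3:**
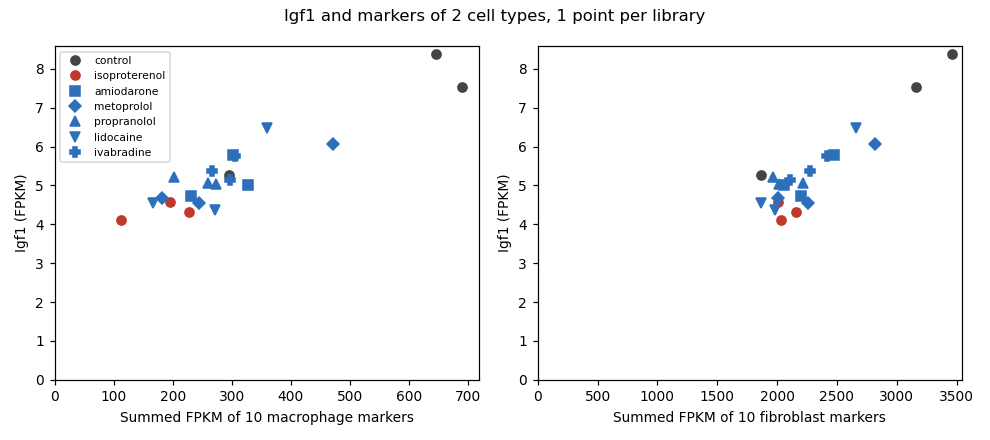
Igf1 in FPKM (vertical axes) against the summed FPKM of 10 macrophage markers (left) and 10 fibroblast markers (right), 1 point per library, both axes from 0. Control 2 and 3 stand at the upper right of both panels, and control 1, at 5.28 FPKM, stands among the drug libraries.

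Igf2, the fetal ligand of the family, was far more abundant than Igf1 and changed little. Control libraries had 281, 225 and 303 FPKM, and isoproterenol libraries had 272, 230 and 223 FPKM. Amiodarone libraries had 244, 223 and 216 FPKM, metoprolol libraries 229, 243 and 203 FPKM, and propranolol libraries 254, 231 and 234 FPKM. Control 2 lay within or below these 4 groups. Lidocaine libraries had 206, 210 and 236 FPKM, and ivabradine libraries had 226, 219 and 218 FPKM, also overlapping control 2.

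Igf2 was called lower with lidocaine (log2 -0.30 ± 0.10, adjusted p = 0.021) and ivabradine (-0.28 ± 0.10, adjusted p = 0.041). Rescaling lost both calls (adjusted p = 0.086 and 0.13), and leaving out control 1 (0.064 and 0.11) or control 3 (0.11 and 0.20) did so too. The lidocaine call was also lost without lidocaine 1 (0.072) or lidocaine 2 (0.068), and the ivabradine call without ivabradine 1 (0.051), 2 (0.097) or 3 (0.10). Without control 2, Igf2 was called with all 6 drugs, with isoproterenol at -0.28 (adjusted p = 0.032), amiodarone at -0.36 (0.014), metoprolol at -0.38 (0.0095) and propranolol at -0.28 (0.037). The metoprolol value, at -0.25 ± 0.10, had an adjusted p of 0.052, and it was also called without isoproterenol 1 (0.040) or metoprolol 2 (0.039). The endothelial markers summed to 752 to 859 FPKM in controls, 692 to 834 FPKM with lidocaine (3 of 10 called lower) and 655 to 761 FPKM with ivabradine (5 of 10 called lower). Their part in the Igf2 differences was not tested. Igf2 overlaps Igf2os and Mir483, and Igf1 overlaps Igf1os, in the RefSeq annotation, and these are not analysed here.

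The ratio of Igf2 to Igf1 was 40.1 ± 13.2 in controls and 55.7 ± 3.16 with isoproterenol. The lowest and highest ratios were 26.9 and 53.3 in controls and 53.5 and 59.3 with isoproterenol, which is no overlap by a narrow margin. The test was run on log2(FPKM + 1), where control 1 lies within the isoproterenol libraries. There the difference was 0.43, with p = 0.30 in a two-sided exact permutation test and 0.90 after adjustment over the 6 drugs. The smallest p that 3 against 3 libraries allow is 0.10. The other 5 groups averaged 40.8 to 46.9.

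Igf1r, the receptor of both ligands, was not called in any comparison. Control libraries had 6.27, 5.15 and 6.04 FPKM, and isoproterenol libraries had 7.88, 6.15 and 6.74 FPKM. The groups overlapped by isoproterenol 2 and control 1, and the log2 fold change was 0.21 ± 0.10 (adjusted p = 0.089). It was called after rescaling (0.30, adjusted p = 0.019), without isoproterenol 2 (0.29, adjusted p = 0.047) and without lidocaine 2 (0.21, adjusted p = 0.048). In the other groups Igf1r ran from 5.33 FPKM (lidocaine 2) to 7.24 FPKM, with log2 fold changes of 0.06 to 0.15, and with lidocaine it was called without lidocaine 2 (0.25, adjusted p = 0.047).

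Around these 3 genes, Irs2 was higher and Igfbp4 lower with all 6 drugs. Irs2, the adaptor that carries insulin receptor and Igf1r signals to PI3K, rose with all 6 drugs, from 1.95 ± 0.309 FPKM to 4.81 ± 0.977 FPKM under isoproterenol, while the means of the 5 anti-arrhythmic groups were 8.13 to 27.6 FPKM. Its difference between isoproterenol and the mean of the 5 drugs was itself called (log2 -1.49 ± 0.28, adjusted p = 9.2e-04). Insr, the insulin receptor, rose with the 5 anti-arrhythmic drugs, from 10.9 ± 0.452 FPKM to 13.3 to 14.3 FPKM. With isoproterenol it stood at 12.7 ± 1.27 FPKM (adjusted p = 0.052), and was called after rescaling (0.0059). Igf2r, the clearance receptor of Igf2, was not called, at 40.1 ± 3.33 FPKM in controls and 36.4 to 51.9 FPKM with drugs, except with metoprolol after rescaling (adjusted p = 0.030).

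Igfbp4, a binding protein that restrains these ligands, fell with all 6 drugs, from 189 ± 35.4 FPKM to 135 to 148 FPKM. Rescaling lost this for isoproterenol (adjusted p = 0.087) and propranolol (0.056). Igfbp3, the main carrier in serum, fell with metoprolol, propranolol, lidocaine and ivabradine (log2 -0.37 to -0.28), and stood at 15.9 ± 0.837 FPKM with isoproterenol against 17.0 ± 1.63 FPKM in controls. Rescaling lost the Igfbp3 call with propranolol (0.080) and ivabradine (0.11). Igfbp5, which is abundant in muscle, was not called, at 44.97 to 53.7 FPKM in all groups. Grb14, an inhibitor of insulin receptor signalling, rose with isoproterenol, from 67.9 ± 4.10 FPKM to 83.6 ± 0.387 FPKM (log2 0.30 ± 0.06, adjusted p = 0.0017). It rose with metoprolol too, and after rescaling with lidocaine (0.028) and ivabradine (0.016). The isoproterenol level was also called against the 5 drugs (log2 0.20 ± 0.05, adjusted p = 0.0054).

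Of the 27 genes listed for this route, 20 were tested. With isoproterenol 3 were called higher and 2 lower, against 8.38% and 25.8% of all genes. The counts higher and lower were 3 and 3 with amiodarone, 4 and 4 with metoprolol, 3 and 4 with propranolol, 3 and 5 with lidocaine and 3 and 4 with ivabradine. With these 5 drugs 6.98% to 10.6% of all genes were called higher and 19.1% to 26.6% lower. Among the 5 anti-arrhythmic groups the F test called 0 of the 20, and 3 had an unadjusted p under 0.05.

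Many calls of this list were lost without the 4 libraries, when the counts higher and lower were 1 and 0 with isoproterenol, 1 and 1 with amiodarone, 3 and 2 with metoprolol, 1 and 0 with propranolol, 2 and 3 with lidocaine and 2 and 0 with ivabradine. Over all genes 2.78% to 8.53% were then called higher and 6% to 19.8% lower. Irs2 lost its call with isoproterenol (log2 0.90, adjusted p = 0.21). Insr was lost with amiodarone and propranolol (0.059 and 0.23), Igfbp4 with all drugs but lidocaine (0.079 to 0.17), Igfbp3 with propranolol and ivabradine (0.27 and 0.11) and Grb14 with metoprolol (0.13). Without the 5 libraries these calls were lost as well, and so was that of Insr with lidocaine (0.10).

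Erbb2, the co-receptor of neuregulin signalling, was lowest with ivabradine and lidocaine. Control libraries had 8.75, 7.18 and 7.92 FPKM, ivabradine libraries 6.33, 6.63 and 6.36 FPKM, and lidocaine libraries 6.49, 6.46 and 7.09 FPKM. Neither group overlapped the controls, and the same held, in either direction, for 35.9% and 48.5% of all genes. The log2 fold change was -0.26 ± 0.09 with ivabradine (adjusted p = 0.034) and -0.22 ± 0.09 with lidocaine (adjusted p = 0.060). The other groups overlapped the controls, at 6.88 to 8.69 FPKM with isoproterenol, 7.84 to 9.41 FPKM with amiodarone, 7.13 to 7.67 FPKM with metoprolol and 7.36 to 8.99 FPKM with propranolol.

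The ivabradine call was lost after rescaling (adjusted p = 0.10) and without control 1 (0.13), control 3 (0.078), ivabradine 1 (0.066), ivabradine 2 (0.061) or ivabradine 3 (0.089). With lidocaine Erbb2 was called without control 2 (-0.28, adjusted p = 0.038), isoproterenol 1 (0.038) or propranolol 1 (0.045). Across the 7 groups Erbb2 and Tnfrsf12a were the 2 of 7 members that passed the F test (adjusted p = 0.036 and 9.1e-04), where 39.9% of all genes passed. The Erbb2 result was lost without control 3, amiodarone 1, lidocaine 1 or 2, or any ivabradine library (adjusted p = 0.052 to 0.074). Igf1 and Agrn missed that test (adjusted p = 0.051 and 0.056). Igf1 passed it without control 1 (0.0070), metoprolol 3 (0.032) or lidocaine 1 (0.018), and Agrn without isoproterenol 1 (0.046), isoproterenol 2 (0.032), propranolol 1 (0.039) or ivabradine 2 (0.044). Igf2 passed it without control 2 (0.022). Erbb2 overlaps Mien1, which stood at 49.8 ± 2.68 FPKM in controls and 38.6 to 43.8 FPKM with drugs, and was called lower with all but ivabradine.

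Erbb4, the receptor that binds neuregulin, was low everywhere and lowest in controls. Control libraries had 0.87, 0.75 and 0.73 FPKM, isoproterenol libraries 0.86 to 0.87 FPKM, and amiodarone libraries 0.98 to 1.01 FPKM. Metoprolol libraries ran from 0.85 to 1.04 FPKM, propranolol libraries from 0.86 to 1.09 FPKM, lidocaine libraries from 0.82 to 0.99 FPKM and ivabradine libraries from 0.93 to 1.13 FPKM. Amiodarone and ivabradine alone had all libraries above the controls. No difference was called, and the ivabradine log2 fold change was 0.19 ± 0.08 (adjusted p = 0.066). At this level the scale of log2(FPKM + 1) understates the change: with a pseudocount of 0.1 it was 0.36 (adjusted p = 0.070). The ivabradine difference was called after rescaling (adjusted p = 0.033) and without ivabradine 1 (0.044). Erbb4 entered the tests only through anti-arrhythmic libraries at or above 1 FPKM, so these higher calls are not independent of the filter.

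The ratio of Erbb2 to Erbb4 was 10.2 ± 0.644 in controls, 7.27 ± 0.600 with lidocaine and 6.24 ± 0.497 with ivabradine. It stood at 8.71 ± 1.21 with isoproterenol, 8.54 ± 0.954 with amiodarone, 8.03 ± 0.912 with metoprolol and 8.05 ± 0.686 with propranolol. All ratios with ivabradine, lidocaine, metoprolol and propranolol lay under all control ratios. On log2(FPKM + 1), the scale tested, this held for ivabradine and lidocaine, and the two-sided exact permutation test gave each its smallest possible p of 0.10, which is 0.30 after adjustment over the 6 drugs. With metoprolol and propranolol p was 0.20. A plain ratio of FPKM does not change with the scaling of its library, but the difference on log2(FPKM + 1) that was tested can change with it.

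**Figure D4:**
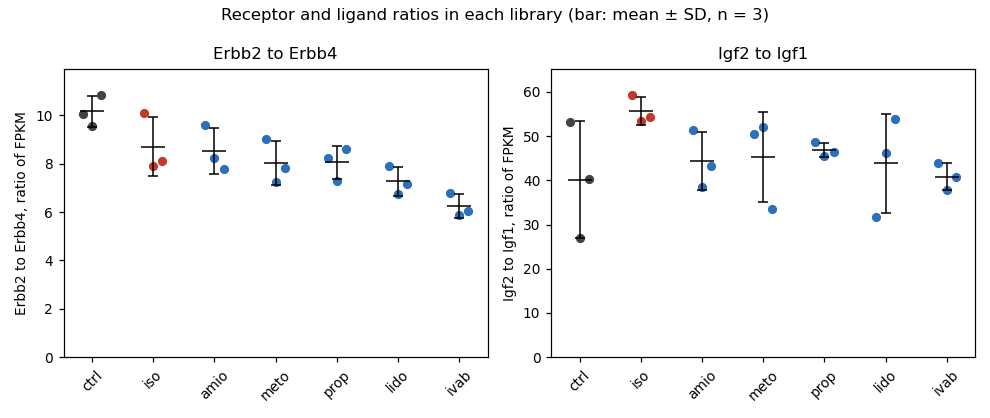
Ratios of FPKM within each library (vertical axes, linear from 0) by group (horizontal axes), points for libraries and bars for mean ± SD of 3. The mean Erbb2 to Erbb4 ratio is 10.2 in controls and 6.24 with ivabradine, and the Igf2 to Igf1 ratio is spread most widely in controls, over 26.9 to 53.3.

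Nrg1, the ligand, was the lowest member, at 0.20 to 0.47 FPKM. Control libraries had 0.37, 0.35 and 0.46 FPKM, isoproterenol libraries 0.33, 0.35 and 0.32 FPKM, and ivabradine libraries 0.24, 0.25 and 0.27 FPKM. Ivabradine was under all controls, while metoprolol (0.24 to 0.47 FPKM), lidocaine (0.20 to 0.45 FPKM), propranolol (0.29 to 0.47 FPKM) and amiodarone (0.33 to 0.40 FPKM) overlapped them. In a fit with no filter, over 18762 genes, Nrg1 was called in no comparison, and the ivabradine log2 fold change was -0.15 ± 0.07 (adjusted p = 0.13).

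Erbb3, a partner of Erbb2, was not called, at 1.87 ± 0.371 FPKM in controls and 1.84 to 2.50 FPKM with drugs. Egfr, the EGF receptor, fell with isoproterenol from 1.93 ± 0.669 FPKM to 1.09 ± 0.150 FPKM (log2 -0.46 ± 0.14, adjusted p = 0.014). Hbegf, a ligand of Egfr and Erbb4, differed across the 7 groups (F test, adjusted p = 0.0087), from 8.57 ± 0.823 FPKM with ivabradine to 13.04 ± 1.70 FPKM with propranolol, and it was called against control with no drug, except with propranolol after rescaling (adjusted p = 0.034).

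Of the 26 genes listed for the neuregulin and ErbB route, 15 were tested. With isoproterenol 5 were called higher and 2 lower, against 8.38% and 25.8% of all genes. With amiodarone, metoprolol and lidocaine 4 were higher and 0 lower, with propranolol 3 and 0, and with ivabradine 2 and 1. For these 5 drugs the shares of all genes were 6.98% to 10.6% higher and 19.1% to 26.6% lower. With amiodarone, metoprolol and lidocaine the higher genes of the list were Lrig1, Bace1, Ptpn11 and Gab1. Ptpn11, the phosphatase Shp2, rose with all 6 drugs, from 27.8 ± 0.588 FPKM to 31.8 to 34.9 FPKM. Gab1, a docking protein for it, rose with isoproterenol, amiodarone, metoprolol and lidocaine, from 22.6 ± 1.34 FPKM to 27.3 to 28.9 FPKM, and after rescaling also with propranolol (adjusted p = 0.011) and ivabradine (0.029). Bace1, a protease that cuts neuregulin, rose with 5 drugs, from 10.7 ± 0.743 FPKM to 13.8 to 15.7 FPKM, and stood at 12.5 ± 1.61 FPKM with ivabradine, where it was called after rescaling (adjusted p = 0.049). Higher calls without the 4 libraries numbered 1 with isoproterenol and with ivabradine, 2 with amiodarone and with propranolol, 3 with metoprolol and 4 with lidocaine, and 0 were lower. Over all genes 2.78% to 8.53% were then called higher and 6% to 19.8% lower. The isoproterenol calls of Bace1 (adjusted p = 0.053), Ptpn11 (0.24) and Egfr (0.23) and the amiodarone call of Gab1 (0.063) were lost. These were lost without the 5 libraries too, as were Gab1 with lidocaine (0.075) and Ptpn11 with ivabradine (0.060).

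Agrn, the matrix ligand, was lower with propranolol and ivabradine and not with isoproterenol. Control libraries had 36.9, 33.6 and 38.9 FPKM, propranolol libraries 32.0, 29.2 and 26.9 FPKM, and ivabradine libraries 27.2, 32.5 and 31.2 FPKM. The libraries of amiodarone (29.5 to 33.0 FPKM), metoprolol (31.8 to 32.7 FPKM) and lidocaine (30.5 to 32.9 FPKM) were under all controls as well. The isoproterenol libraries, at 41.5, 31.9 and 33.5 FPKM, overlapped both. In the order of means, control, isoproterenol, metoprolol, amiodarone, lidocaine, ivabradine and propranolol, each group overlapped its neighbours.

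The log2 fold change of Agrn was -0.30 ± 0.09 with propranolol (adjusted p = 0.017) and -0.26 ± 0.09 with ivabradine (adjusted p = 0.034). With lidocaine, amiodarone and metoprolol it was -0.21, -0.20 and -0.17 and was not called. Without isoproterenol 1 it was called with amiodarone (adjusted p = 0.046) and lidocaine (0.031), and with lidocaine also without control 2 (0.048). Rescaling lost both calls (adjusted p = 0.052 and 0.098). The propranolol call was lost without control 3 (0.073) or propranolol 3 (0.075), and the ivabradine call without control 1 (0.072), control 3 (0.13), ivabradine 1 (0.13) or ivabradine 3 (0.059). Isoproterenol against the mean of the 5 drugs gave 0.19 ± 0.07 (adjusted p = 0.052), and it was called in 8 of 32 settings. These were rescaling (adjusted p = 0.022), a 5 FPKM filter (0.046), robust moderation (0.047) and leaving out control 2 (0.048), isoproterenol 2 (0.026), propranolol 1 (0.037), lidocaine 3 (0.0497) or ivabradine 2 (0.042). The endothelial markers summed to 707 to 767 FPKM with propranolol, with 3 of 10 called lower, and their part in the Agrn difference was not tested.

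Dag1, which encodes dystroglycan, the surface receptor for agrin in heart muscle, rose with all 6 drugs. It had 71.3 ± 3.63 FPKM in controls, 102 ± 6.94 FPKM with isoproterenol (log2 0.52 ± 0.08, adjusted p = 1.9e-04) and 99.7 to 115 FPKM with the other drugs. The difference between isoproterenol and the mean of the 5 others was not called (log2 -0.08 ± 0.06, adjusted p = 0.41). Lrp4, the agrin receptor of the neuromuscular junction, was not called, at 2.75 to 3.70 FPKM in all groups, except with amiodarone after rescaling (adjusted p = 0.035). Dok7, an adaptor of that junctional receptor complex, fell with all drugs but propranolol, from 14.01 ± 0.215 FPKM to 9.65 to 11.3 FPKM, and rescaling lost the isoproterenol call (adjusted p = 0.073).

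The dystroglycan complex rose more broadly. Sntb1, a syntrophin that links the complex to signalling proteins, rose from 5.29 ± 0.651 FPKM to 9.90 to 13.9 FPKM, and Sspn, the membrane protein sarcospan, from 54.4 ± 2.34 FPKM to 72.3 to 77.0 FPKM, each with all 6 drugs. Of the 32 genes listed for this route, 30 were tested. Calls higher and lower numbered 12 and 3 with isoproterenol, 11 and 1 with amiodarone, 12 and 1 with metoprolol, 11 and 2 with propranolol, 14 and 3 with lidocaine and 11 and 3 with ivabradine. Over all genes 6.98% to 10.6% were called higher and 19.1% to 26.6% lower. Of the 10 cardiomyocyte markers, 5, 4, 3, 4, 4 and 5 were called higher with the 6 drugs in the same order, and 1 lower with lidocaine. Whether the rise in this list is shared with other cardiomyocyte genes was not tested. The median log2 fold change was 0.09 to 0.17 in the list and -0.10 to -0.08 over all genes. Without the 4 libraries the counts higher and lower were 6 and 1, 5 and 0, 11 and 1, 8 and 0, 13 and 2, and 9 and 1 for the 6 drugs in the same order, where 2.78% to 8.53% of all genes were called higher. Without the 5 libraries they were 5 and 1, 4 and 0, 9 and 1, 8 and 0, 11 and 2, and 8 and 1. Dag1, Sntb1 and Sspn stayed called with all 6 drugs in both settings, and Dok7 was lost with amiodarone (adjusted p = 0.083 and 0.096).

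**Figure D5:**
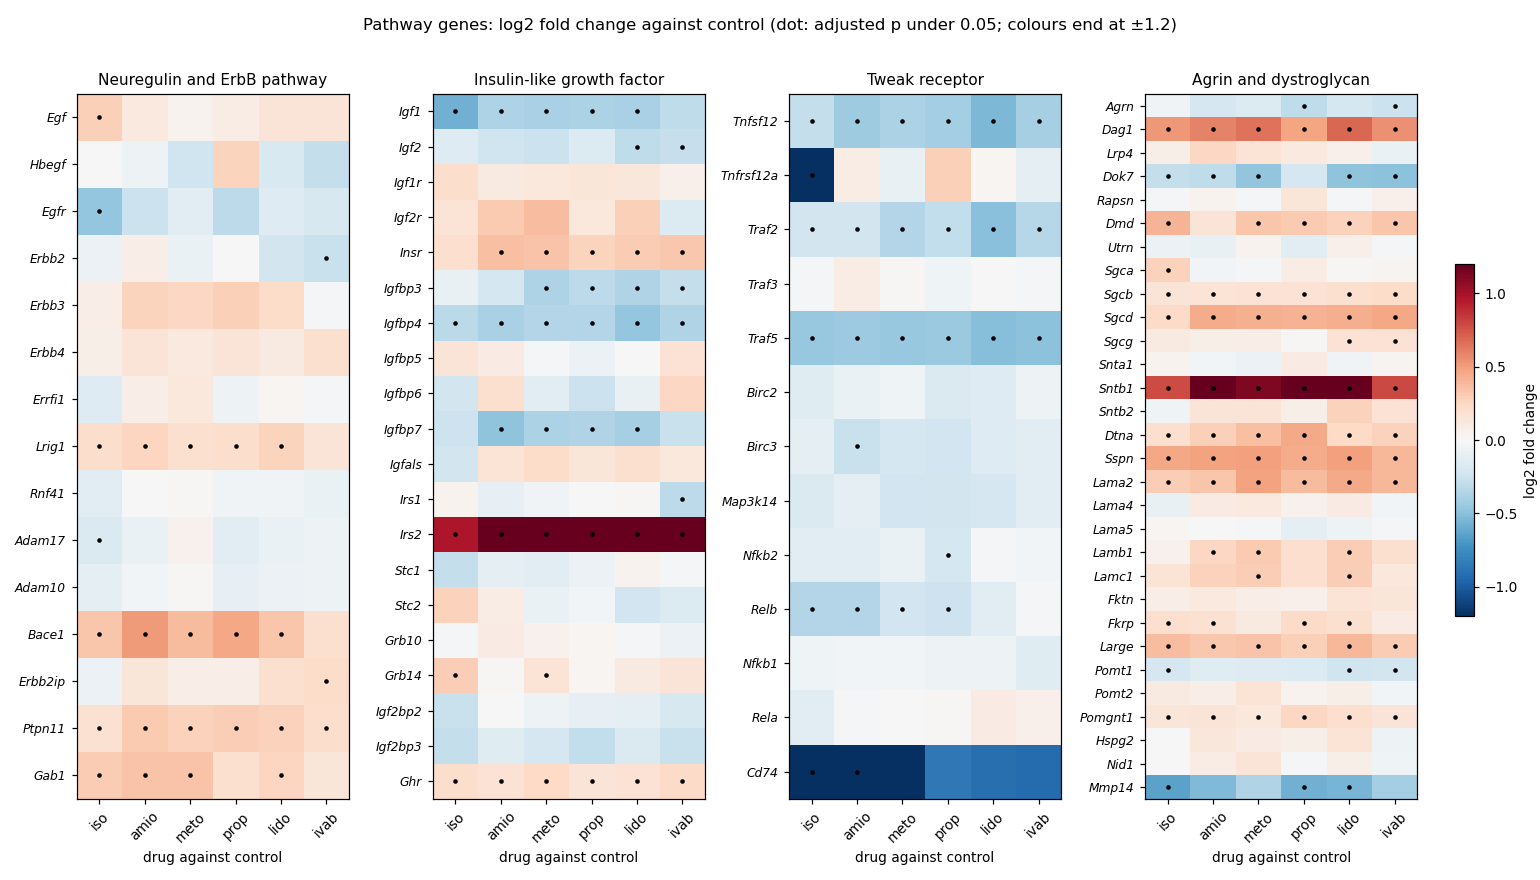
Log2 fold change against control of the tested genes of the 4 routes (vertical axes) for 6 drugs (horizontal axes), in colour, with dots for adjusted p under 0.05. Columns share their controls; Tnfrsf12a is dark in the isoproterenol column alone, and Irs2 is dark in all 6 columns.

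Downstream, 36 genes listed for the PI3K, AKT and ERK relay were all tested. The list also holds Pdk1, which encodes a pyruvate dehydrogenase kinase and lies outside the relay, beside the AKT kinase gene Pdpk1. Pdk1 is counted among the higher calls below with all drugs but propranolol, and Pdpk1 was called with none. With isoproterenol 5 were called higher and 4 lower, with amiodarone 11 and 2, with metoprolol 9 and 2, with propranolol 6 and 3, with lidocaine 10 and 4 and with ivabradine 3 and 3. Over all genes, 6.98% to 10.6% were called higher and 19.1% to 26.6% lower with a drug. Mtor, the growth kinase, rose with all drugs but ivabradine, from 9.06 ± 0.807 FPKM to 11.1 to 12.5 FPKM, and with ivabradine after rescaling (adjusted p = 0.021). Akt1 rose with the 5 anti-arrhythmic drugs, from 154 ± 10.9 FPKM to 173 to 199 FPKM, and stood at 165 ± 7.13 FPKM with isoproterenol, where it was called after rescaling (adjusted p = 0.013). Foxo3, a transcription factor that AKT restrains, differed among the 5 anti-arrhythmic groups (F test, adjusted p = 0.024), from 11.5 ± 0.799 FPKM with propranolol to 14.5 ± 0.398 FPKM with metoprolol. That F test called 132 of all genes with every library, 11 without the 4 libraries and 10 without the 5. Counts higher and lower in this list, with the 4 libraries left out, were 4 and 1, 5 and 0, 7 and 0, 2 and 2, 10 and 3, and 3 and 2 for the 6 drugs in the same order, and without the 5 libraries 4 and 1, 5 and 0, 7 and 0, 2 and 1, 7 and 1, and 3 and 1. Over all genes 2.78% to 8.53% were called higher and 6% to 19.8% lower without the 4 libraries. With the 5 left out these shares were 2.23% to 6.39% and 4.85% to 15.3%. Mtor with propranolol (adjusted p = 0.12 and 0.14) and Akt1 with metoprolol (0.056 and 0.068) lost their calls in these settings.

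Among the 5 anti-arrhythmic groups no member differed in limma's F test, where 1.06% of all genes did. At an unadjusted p under 0.05 there was 1, Erbb2 (adjusted p = 0.18). The pair of β-blockers, metoprolol and propranolol, differed in none of the 7 members, with 0 also at an unadjusted p under 0.05, where 0.0483% of all genes were called. The libraries of these groups overlapped for all 7 members, and did not for 18.4% of all genes. The widest interval was that of Tnfrsf12a, at a log2 difference of -0.38 (-0.84 to 0.09), and the narrowest those of Erbb4 (-0.04, -0.20 to 0.12) and Agrn (0.14, -0.05 to 0.32). Doses are not stated, so it is not known whether the drugs were matched.

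The genes whose levels ran most like those of each member over the 21 libraries were ranked by Pearson's r of log2(FPKM + 1). These values describe libraries that share their group differences. For Tnfrsf12a they were Nolc1 (0.92), a nucleolar protein, Nppb (0.91), a natriuretic peptide of the stressed ventricle, and Ccnd1 (0.89), cyclin D1. For Igf1 they were Postn (0.93), the matrix protein periostin, which is also in the fibroblast list, Kdelr3 (0.92) and C3ar1 (0.92), a complement receptor. Igf2 ran most like N4bp3 (0.89), Ankrd39 (0.87) and Pald1 (0.87), and Agrn like Gpatch8 (0.92), Arhgef2 (0.90) and Dock6 (0.90). The values were lower for Erbb2 (Chtf8, 0.86; Dscr3, 0.84; Wdr82, 0.84), Erbb4 (Acss3, 0.79; Mkln1, 0.78; Ppp2r3a, 0.77) and Igf1r (Sh3bp5, 0.78; Cdkl1, 0.78; Zfp438, 0.78). Among the members themselves the largest r was 0.66, between Igf2 and Agrn, followed by 0.65 between Igf2 and Erbb2.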

How the data were processed

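RNA of heart apex from 21 libraries, 3 in each of 7 groups, was sequenced by the submitters on a BGISEQ-500, per the labels' protocols. The authors deposited 1 table of FPKM values, and the submitters' processing notes name HISAT, Bowtie2 2.2.5 and mm9. The counter, annotation release, strand and the choice between oligo dT and rRNA depletion are not given in the sources used here. Each column of values has a library title as its name.

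Values were analysed as log2(FPKM + 1) for the 12433 genes that reached 1 FPKM in 3 or more libraries. limma 3.58.1 (R 4.3.3) fitted 1 mean per group to all 21 libraries, with 14 residual degrees of freedom, a variance trend and Benjamini-Hochberg adjustment over all tested genes, threshold 0.05. Ratios were compared by exact permutation. The script was tested on simulated data. Without counts, depth is unknown. Steps in 52 low genes gave relative depths of 0.963 to 1.00, which is coarse at 2 decimals. Only values close to each gene's lowest were used, so larger differences in depth could not appear, and equal depth is not shown.

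Named genes were the members, the 4 of smallest p per pathway list in the 7-group F test, partners of members, and the 3 genes most like each member. A gene that this rule names is not reported here. The members and lists were chosen with earlier results of these data known. Alternatives were a pseudocount of 0.1, no filter or 5 FPKM, median-of-ratios rescaling, fitting the compared groups only, leaving out the trend, robust moderation, a block for the replicate number, a covariate of 4 Y-linked genes, leaving out 4 libraries together and leaving out each library. Leaving out lidocaine 1 with those 4, and counting the lists without these libraries, was added after seeing the data. The affected groups then have 2 libraries each, and limma pools their spread with the rest.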

Additional observations from a re-analysis of the deposited data

How the results depend on the processing

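Of 1784 values of the 7 tested members under alternatives, 1652 stayed on the same side of the threshold, 96 lost a call and 36 gained one. The sign differed in 31, all uncalled in both. Tnfrsf12a with isoproterenol kept its call throughout. FPKM without counts gives no counting error, so it is unknown also for the members near or under 1 FPKM (Nrg1, Erbb4).

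Members called against control numbered 2, 1, 1, 2, 2 and 3 with isoproterenol, amiodarone, metoprolol, propranolol, lidocaine and ivabradine. With no filter the last 5 were 0, 0, 1, 1 and 1, after rescaling 0, 0, 0, 0 and 1, and with compared groups only 0, 0, 1, 1 and 0. Without the 4 libraries carrying other tissues the 6 counts were 1, 0, 0, 0, 0 and 0, and with lidocaine 1 left out too, chosen after seeing the data, 2, 0, 0, 0, 1 and 0. With metoprolol the count was 2 with a 5 FPKM filter, robust moderation or the Y-linked covariate, and with amiodarone 2 without the variance trend. The Y-linked covariate gave 0 with amiodarone and 1 with propranolol. Over the 7 groups the count of 2 became 1 with no filter or without the 4 or 5 libraries, and 4 with a 5 FPKM filter or robust moderation. For isoproterenol against the 5 drugs the count of 1 became 2 with a 5 FPKM filter, rescaling or robust moderation. Leaving out 1 library gave 2 to 3, 0 to 1, 0 to 2, 0 to 2, 0 to 4 and 0 to 3 for the 6 drugs, 1 to 3 over 7 groups and 1 to 2 for isoproterenol against the 5.

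Genes called without the 4 libraries numbered 1940, 1123, 1361 and 2232 with isoproterenol, amiodarone, propranolol and ivabradine (4254, 3608, 3332 and 3358 with all), 2153 over 7 groups (4962), 11 among the 5 (132), 1384 for isoproterenol against them (2831) and 0 for metoprolol against propranolol (6). Without the 5 libraries the 6 drugs gave 1766, 899, 2520, 1125, 2700 and 1999 (metoprolol 3910 and lidocaine 4615 with all), the 7 groups 1596, the 5 groups 10, isoproterenol against them 1178 and the β-blockers 0. With no filter the 5-group count was 76 and the β-blocker count 0. With compared groups only ivabradine gave 1560 and the β-blockers 3, and with the Y-linked covariate isoproterenol against the 5 gave 1701 and the β-blockers 1. Leaving out 1 library gave 2779 to 4537 with isoproterenol, 2038 to 3947 with amiodarone, 2389 to 4265 with metoprolol, 2012 to 3686 with propranolol, 3247 to 4906 with lidocaine, 2216 to 3826 with ivabradine, 3417 to 5380 over 7 groups, 70 to 139 among the 5, 1596 to 3237 for isoproterenol against them and 0 to 10 for the β-blockers. A fit of compared groups is not possible for the 7-group test, and the 5 FPKM filter leaves out Erbb4. The cause of these changes was not tested.

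With a pseudocount of 0.1 the log2 Erbb2 to Erbb4 ratio against control was -0.22, -0.30, -0.46 and -0.66 with amiodarone, propranolol, lidocaine and ivabradine, against -0.08, -0.16, -0.33 and -0.45 with 1.

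Libraries of the same title number were not paired by the labels, and the residual correlations of 63 such pairs ran from -0.54 to 0.29 (median -0.03), with 12 above 0.1. With the replicate number as a block, the members called were 0 with amiodarone and 1 with propranolol, both through the loss of Igf1 (adjusted p = 0.060 and 0.056), and Erbb2 was called with lidocaine (0.032). Tnfrsf12a with isoproterenol stayed at -1.25 (adjusted p = 3.6e-04).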

Other observations

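Of 45 other growth factors and receptors of heart repair, 35 were tested, and most of the calls were to lower levels. With isoproterenol 3 were called higher and 11 lower, with amiodarone 2 and 5, with metoprolol 1 and 7, with propranolol 0 and 10, with lidocaine 2 and 10 and with ivabradine 1 and 7. Over all genes, 6.98% to 10.6% were called higher and 19.1% to 26.6% lower with a drug. Mdk, the heparin-binding growth factor midkine, fell with all 6 drugs, from 91.1 ± 10.6 FPKM in controls to 59.9 ± 7.51 FPKM with isoproterenol (log2 -0.60 ± 0.11, adjusted p = 5.0e-04) and 62.4 to 68.6 FPKM with the others. Without the 4 libraries carrying other tissues the higher and lower counts were 0 and 3, 0 and 1, 0 and 6, 0 and 3, 1 and 7, and 1 and 3 for the 6 drugs in the same order, and without the 5 libraries 0 and 2, 0 and 1, 0 and 6, 0 and 0, 1 and 7, and 1 and 1. Over all genes 6% to 19.8% were called lower without the 4 libraries and 4.85% to 15.3% without the 5. In both settings Mdk lost its calls with amiodarone, propranolol and ivabradine (adjusted p = 0.061 to 0.078).

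Bmp4, a ligand of the TGF-β superfamily, fell with amiodarone, metoprolol, propranolol and lidocaine but stood at 7.90 ± 0.806 FPKM with isoproterenol against 7.39 ± 0.676 FPKM in controls. Its difference between isoproterenol and the mean of the 5 drugs was called (log2 0.51 ± 0.11, adjusted p = 0.0024), and rescaling lost the calls against control with amiodarone, metoprolol and lidocaine (adjusted p = 0.062, 0.068 and 0.062). Without the 4 libraries the calls with amiodarone (0.078) and propranolol (0.10) were lost and ivabradine was called (0.048). Without the 5 libraries Bmp4 was not called with ivabradine (0.050). Fgf9, a growth factor of the embryonic heart, fell with propranolol, lidocaine and ivabradine, from 2.76 ± 0.306 FPKM to 2.14 ± 0.317, 1.87 ± 0.104 and 1.76 ± 0.0950 FPKM, and the propranolol call was lost after rescaling (adjusted p = 0.12) and without the 5 libraries (0.058). Lifr, the receptor of leukaemia inhibitory factor, differed among the 5 anti-arrhythmic groups (F test, adjusted p = 0.019), at 7.14 ± 0.119 FPKM with lidocaine, 7.15 ± 0.418 FPKM with ivabradine and 5.50 to 6.17 FPKM with the other 3. The genes called in that F test fell from 132 to 11 without the 4 libraries and to 10 without the 5.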
